A study of Homo sapiens with 19 samples.

Results

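The genes described here are the protein-coding zinc finger genes named ZNF400 to ZNF699. The rule goes by the name of a gene: a member is a row of a gene count table whose Ensembl ID maps to a protein-coding symbol made of ZNF and a number in that range. The rule found 202 members among the 84354 gene IDs of the 3 count tables, and all 202 are listed in each table. Another 275 protein-coding genes carry ZNF and a number outside that range, and they are given as a comparison.

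RNA of 2 human colorectal carcinoma cell lines, HCT116 and WiDr, was sequenced 96 h after an inhibitor of protein arginine methyltransferases or its solvent was added. HCT116 cells received GSK025 (GSK3235025, an inhibitor of PRMT5, 10 µM), GSK715 (GSK3368715, an inhibitor of PRMT1 and the other type I enzymes, 5 µM) or DMSO, with 3 short-read libraries each. WiDr cells received GSK715 (5 µM) or DMSO, with 3 short-read libraries each, and both WiDr groups were also read as full-length cDNA on an Oxford Nanopore (ONT) sequencer, with 2 libraries each. The control columns of both WiDr tables are headed NC and were taken as DMSO, the only control group in the labels. Both are tumor cell lines kept in culture, and the labels name no engineered allele. The question is how inhibition of each enzyme changes RNA levels, and the design gives each inhibitor against DMSO, the inhibitors against each other, and GSK715 across lines and across read types.

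Zinc fingers of the type found here are short protein folds held together by a zinc ion, and a row of them reads a stretch of DNA. The largest family of such proteins in humans joins the fingers to a KRAB domain, which binds the scaffold protein TRIM28 (KAP1). TRIM28 brings the histone methyltransferase SETDB1 and HP1 proteins to the bound site, so that many KRAB zinc finger proteins silence transposable elements in heterochromatin. Many of these genes sit side by side in clusters on chromosome 19, and others outside the KRAB family act in transcription, ribosome assembly or protein modification.

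In the longest reading frames of the GENCODE 29 transcripts, 115 of the 202 members carried the letters of a KRAB A box and are called KRAB-type here, and 87 did not. Letters of either end of the A box gave 126 members. The class is a match of letters, so members called other can still hold a KRAB domain. A SCAN domain, a pairing domain shared by a smaller group of zinc finger proteins, was found by its letters in 7 members. The median member had 10 zinc fingers. KRAB-type members had a median of 11 fingers and the others 9, and ZNF462 had the most, 33. No finger matched in 3 members, ZNF474, ZNF487 and ZNF503. On chromosome 19 lay 114 members, of which 86 were KRAB-type, against 29 KRAB-type members among the 88 on other chromosomes. The median exonic length was 5018 bp, against 4225 bp over all protein-coding genes.

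RefSeq promoter windows (300 bases around the gene start, GRCh38.p14) were found for 174 members. The letters CCGGAAGT, the core bound by ETS factors, stood on either strand of 28 of these promoters (16.1%), against 17.7% of 231 promoters of the other ZNF-number genes and 6.19% of 15843 promoters of protein-coding genes. The share was 19.6% in KRAB-type members and 11.1% in the others. The cAMP response letters TGACGTCA stood in 5.17% of the members' promoters and in 2.59% of all, and a motif of NRF1 in 2.87% and 1.75%. A motif of YY1 stood in 2.3% and 1.93%. Both strands were searched for each motif, and a match is a string of letters, not a shown binding site. The promoters of 4 members are printed as examples, with the matched letters in capitals. Their RNA levels moved in opposite directions in the lines or were found in WiDr only. Other members with such RNA levels are not printed. All 4 examples hold matched letters, so they do not show how often such members carry them. A link between the letters and the direction of change was not tested. ZNF593 (chr1:26169658-26169957, plus strand) holds the cAMP response and ETS letters, ZNF622 (chr5:16465751-16466050, minus strand) and ZNF671 (chr19:57727575-57727874, minus strand, ETS letters on the opposite strand) hold the ETS letters, and ZNF652 (chr17:49362201-49362500, minus strand) holds those of NRF1.
ZNF593: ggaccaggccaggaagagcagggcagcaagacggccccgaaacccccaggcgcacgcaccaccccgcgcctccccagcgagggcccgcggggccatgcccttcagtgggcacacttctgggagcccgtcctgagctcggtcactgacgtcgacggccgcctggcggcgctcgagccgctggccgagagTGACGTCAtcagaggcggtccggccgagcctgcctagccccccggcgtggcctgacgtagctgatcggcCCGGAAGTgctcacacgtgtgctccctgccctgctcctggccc
ZNF622: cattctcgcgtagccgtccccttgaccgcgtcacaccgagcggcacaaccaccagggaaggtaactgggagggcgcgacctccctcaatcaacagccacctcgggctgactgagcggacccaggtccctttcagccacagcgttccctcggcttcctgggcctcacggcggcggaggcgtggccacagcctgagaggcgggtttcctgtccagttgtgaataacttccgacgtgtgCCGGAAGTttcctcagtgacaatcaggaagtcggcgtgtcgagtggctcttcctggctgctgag
ZNF671: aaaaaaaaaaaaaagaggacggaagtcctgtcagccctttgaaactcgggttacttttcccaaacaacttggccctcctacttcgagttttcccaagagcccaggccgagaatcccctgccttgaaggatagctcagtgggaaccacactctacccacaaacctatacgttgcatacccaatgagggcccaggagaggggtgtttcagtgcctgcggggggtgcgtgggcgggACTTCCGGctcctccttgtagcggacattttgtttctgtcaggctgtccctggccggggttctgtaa
ZNF652: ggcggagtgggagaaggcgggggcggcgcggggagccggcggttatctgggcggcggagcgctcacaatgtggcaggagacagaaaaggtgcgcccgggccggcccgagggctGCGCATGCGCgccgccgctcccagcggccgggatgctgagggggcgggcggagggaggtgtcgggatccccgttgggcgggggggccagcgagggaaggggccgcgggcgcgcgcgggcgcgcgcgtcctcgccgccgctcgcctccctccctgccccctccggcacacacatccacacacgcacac

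Neighbouring members can be close copies. ZNF417 and ZNF587, which lie close together on chromosome 19 and are known to repress HERV-K elements in human cells, have fingers so alike that reads of one can be counted for the other. Of the 12 fingers at the same position in both proteins, 5 do not differ, 5 differ at 1 base, 1 at 2 bases and 1 at 3 bases. ZNF587 has 13 fingers in all, since at 1 position the letters matched only there. Of the 100-base transcript words of ZNF417, 25.9% also occur in another gene. Printed to show the likeness are the first pair with a difference, finger 4 of both, and then the pair that differs most, finger 9 of ZNF417 and finger 10 of ZNF587 (63 bases each, from GENCODE 29 transcripts of GRCh38 chromosome 19, in the reading direction), with bases that differ between the genes in capitals.
ZNF417: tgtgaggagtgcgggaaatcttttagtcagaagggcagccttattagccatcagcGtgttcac
ZNF587: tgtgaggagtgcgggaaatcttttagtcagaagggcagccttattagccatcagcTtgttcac
ZNF417: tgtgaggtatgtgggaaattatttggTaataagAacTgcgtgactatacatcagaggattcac
ZNF587: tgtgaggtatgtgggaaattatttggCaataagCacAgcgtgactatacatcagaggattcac
For 21 members at least 10% of the 100-base transcript words also occur in another gene, and for 39 members at least 10% of exonic bases are shared with another gene or a readthrough gene exists. Levels of such members are called uncertain where they are named, since the strand of the libraries is not stated in the sources used here.

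In units of 1e6 counts, the HCT116 libraries held 64.6 to 66.9, those of WiDr 59.6 to 82.4 and the ONT libraries 1.45 to 1.67, so weakly expressed members are measured far less precisely by ONT. Levels are given as counts per 1e6 counts after TMM scaling (CPM). Changes are log2 fold changes (log2FC), whose standard error (SE) was approximated from the F statistic, and a gene is said to rise, fall or differ where edgeR's quasi-likelihood test gave an adjusted p under 0.05 over all genes tested. Of 11 markers of colorectal epithelium, 8 reached 1 CPM in each HCT116 group and 9 or 10 in each WiDr group, while CDX1, VIL1 and LGALS4 stayed below 1 CPM in HCT116. The summed level of the epithelial markers in HCT116 was 7951 to 8367 CPM with GSK025, 6372 to 6840 CPM with GSK715 and 4856 to 4958 CPM with DMSO. In WiDr it was 23439 to 23964 CPM with GSK715 and 16112 to 16409 CPM with DMSO. Markers of fibroblasts, endothelium and immune cells mostly stayed below 1 CPM (4 or 5 of 17 reached it with an inhibitor in short reads, against 3 or 4 with DMSO). The summed level of the fibroblast, endothelial and immune markers in WiDr, where LYZ was among the markers above 1 CPM, was 3050 to 3187 CPM with GSK715 and 1221 to 1253 CPM with DMSO. In HCT116 the sum was 42.1 to 48.2 CPM with GSK025, 102 to 112 CPM with GSK715 and 56.1 to 61.0 CPM with DMSO. PTPRC, which marks immune cells, was at 0 or below 1 CPM in all groups. The part of all these markers in the results was not tested. In RNA from bulk cultures, fewer cells that express a gene and less RNA per cell cannot be told apart.

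Most members were weakly expressed. All members together took 0.185% to 0.191% of the counts with GSK025, 0.179% to 0.183% with GSK715 and 0.222% to 0.223% with DMSO in HCT116. In WiDr they took 0.267% to 0.272% with GSK715 and 0.315% to 0.317% with DMSO, and the groups did not overlap in either line. In the ONT libraries the shares were 0.262% to 0.263% with GSK715 and 0.259% to 0.267% with DMSO, and the groups overlapped. The count filter left 154 members for testing in HCT116, 159 in WiDr and 104 in ONT, and 150 were tested in both short-read tables. In HCT116, 77 of the 154 were KRAB-type, in WiDr 82 of 159, and in ONT 52 of 104. No count was found in any library for 14 members in HCT116, 22 in WiDr and 14 in ONT. Among members that were not tested, ZNF605, ZNF571 and ZNF439 had the highest totals in HCT116 (74, 66 and 56 counts), ZNF549, ZNF439 and ZNF486 in WiDr (67, 51 and 38) and ZNF641, ZNF530 and ZNF620 in ONT (41, 33 and 33).

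Per kb of exon, the highest level over both lines with DMSO belonged to ZNF664, with 53.4 ± 0.294 CPM per kb in WiDr and 23.4 ± 0.666 in HCT116 (SD, n = 3). ZNF593, the human counterpart of a yeast factor of ribosome assembly, had 25.7 ± 4.59 and 28.4 ± 1.42 CPM per kb, but all of its exonic bases lie within another annotated gene (AL391650.1), so its level is uncertain. ZNF622, a factor of large ribosomal subunit maturation, followed with 26.7 ± 1.44 and 19.4 ± 1.22 CPM per kb. ZNF598, a ubiquitin ligase that marks collided ribosomes, had 35.4 ± 0.634 and 7.28 ± 0.865 CPM per kb. ZNF581 (11.6 ± 0.111 and 11.2 ± 0.687) and ZNF609 (17.2 ± 0.177 and 5.5 ± 0.163), an interaction partner of the Integrator complex, completed the first 6. None of the 6 was KRAB-type. Levels between the lines come from tables normalized separately and were not tested.

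With GSK025, the inhibitor of PRMT5, KRAB-type members were lower in HCT116 far more often than higher, while the other members split both ways. Of the 154 members tested, 21 rose and 54 fell (13.6% and 35.1%), against 22.0% higher and 22.1% lower among all 19751 genes tested. Changes of at least 2-fold were called upward for 2 members and downward for 18, against 1.35% and 7.52% of all genes. Of 77 KRAB-type members 1 rose and 37 fell, with a median log2FC of -0.56. Of the 77 others 20 rose and 17 fell, with a median of 0.06 (-0.0056 with library totals in place of TMM and -0.035 without members that share exons), and the median of all genes was -0.02. The other ZNF-number genes gave 27 higher and 82 lower of 217, with a median of -0.32. The difference between the classes was not tested.

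ZNF483 (ENSG00000173258, chromosome 9, 111525159 to 111577844), which carries SCAN letters and 11 fingers, had 8.35, 6.54 and 4.95 CPM with GSK025, against 22.3, 20.3 and 24.8 CPM with DMSO. The groups did not overlap, and the decrease passed (log2FC -1.76, SE 0.17, adjusted p = 2.4e-06). The KRAB-type gene ZNF678 (ENSG00000181450, chromosome 1, 227563543 to 227677443) had 4.7, 4.65 and 4.89 CPM with GSK025, against 15.7, 13.9 and 15.4 CPM with DMSO (log2FC -1.66, SE 0.14, adjusted p = 1.1e-06). Its treated libraries lay within 0.3 CPM of each other. ZNF525, a KRAB-type gene of a cluster on chromosome 19, had 1.63, 1.72 and 1.21 CPM with GSK025, against 5.3, 4.41 and 5.18 CPM with DMSO (log2FC -1.70, SE 0.20, adjusted p = 1.5e-05). ZNF484 (4.01 ± 0.419 CPM with GSK025 and 11.9 ± 2.46 CPM with DMSO), ZNF566 (1.92 ± 0.518 and 5.57 ± 0.687 CPM) and ZNF624 (1.29 ± 0.142 and 3.32 ± 0.359 CPM, SD, n = 3) were the other named decreases, with log2FC of -1.57, -1.54 and -1.36. ZNF546, below the level for naming by rule, was chosen after its values were seen because its fitted decrease was the largest (log2FC -3.26, SE 0.94, adjusted p = 0.012). It had 0.03, 0.107 and 0.0306 CPM with GSK025, against 0.579, 0.718 and 0.365 CPM with DMSO, and its call ended without DMSO replicate 2 (adjusted p = 0.056).

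Increases with GSK025 were smaller and lay mostly outside the members called KRAB-type by their letters. Of these 1 of 77 rose, and 2 of 86 rose when letters of either end of the A box were accepted. ZNF425 had 2.79, 3.04 and 3.05 CPM with GSK025, against 0.97, 1.35 and 1.05 CPM with DMSO, and every treated library exceeded every control (log2FC 1.40, SE 0.27, adjusted p = 0.00078). ZNF423, a large protein of many fingers that acts with EBF factors and in BMP signalling, had 1.51, 1.64 and 1.82 CPM with GSK025, against 0.579, 0.748 and 0.758 CPM with DMSO (log2FC 1.25, SE 0.32, adjusted p = 0.0059). ZNF467, whose mouse counterpart favours fat over bone cell fate, had 11.3 ± 1.34 CPM with GSK025 and 5.78 ± 1.17 CPM with DMSO (log2FC 0.96). ZNF488, known in the mouse from oligodendrocyte development, had 15.1 ± 2.32 and 8.76 ± 1.18 CPM (log2FC 0.79), and ZNF428, an uncertain gene that shares exons with SRRM5, had 21.6 ± 3.48 and 11.2 ± 0.806 CPM (log2FC 0.96). ZNF419 was the KRAB-type member that rose, with 2.19, 2.78 and 3.84 CPM with GSK025, against 1.67, 1.69 and 1.66 CPM with DMSO (log2FC 0.81, SE 0.25, adjusted p = 0.018). Its call rested on single libraries. It ended without replicate 3 of GSK025 (log2FC 0.57, adjusted p = 0.11) and without DMSO replicate 3 (log2FC 0.81, adjusted p = 0.051). Without DMSO replicate 1 the log2FC was also 0.81, and the adjusted p lay at the threshold (0.05 after rounding). Without the members that share exons, 13 of 120 rose and 45 fell.

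**Figure D1:**
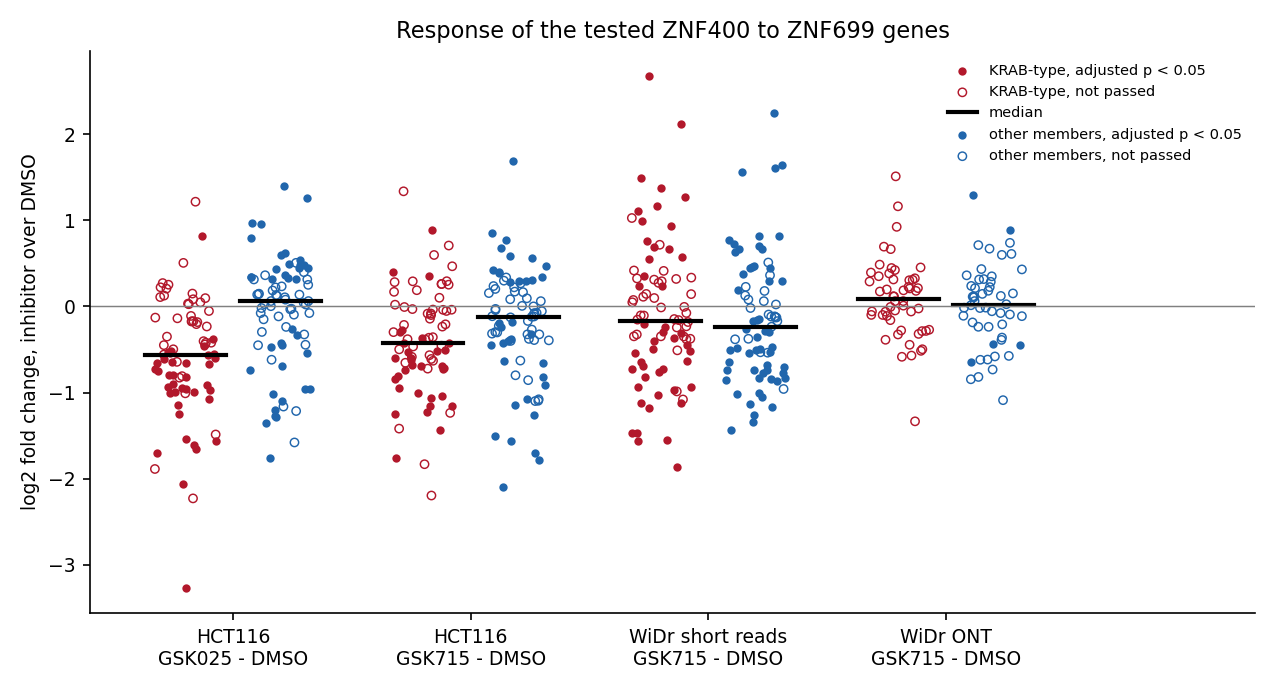
Each point is the log2 fold change of one tested member, inhibitor over DMSO, by comparison (x axis), with KRAB-type members in red and other members in blue. Filled points passed an adjusted p of 0.05 in edgeR, open points did not, and black bars are medians. With GSK025 in HCT116 the medians were -0.56 for KRAB-type members and 0.06 for the others.

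With GSK715, the inhibitor of type I enzymes, 18 of 154 members rose and 49 fell in HCT116 (11.7% and 31.8%), against 22.1% higher and 24.2% lower among all genes tested. With library totals in place of TMM the split was 11 and 65. Changes of at least 2-fold were called upward for 1 member and downward for 17, against 2.67% and 8.57% of all genes. KRAB-type members gave 3 higher and 29 lower of 77, with a median log2FC of -0.42, and the others 15 higher and 20 lower of 77 (9 and 27 with library totals), with a median of -0.13. All genes had a median of -0.05, and it moved by -0.16 with library totals. The ZNF-number genes outside the range gave 24 higher and 69 lower of 217. Both inhibitor comparisons of HCT116 use the same DMSO libraries, so their values are given side by side and not as independent results.

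ZNF483 also had the largest named decrease with GSK715, with 5.83, 7.28 and 6.43 CPM, against the DMSO values given above (log2FC -1.79, SE 0.17, adjusted p = 1.9e-06). ZNF510, a KRAB-type gene, had 1.74, 2.38 and 1.24 CPM with GSK715, against 4.78, 6.02 and 7.38 CPM with DMSO (log2FC -1.76, SE 0.25, adjusted p = 7.5e-05). ZNF654 had 4.97, 5.16 and 4.45 CPM with GSK715, against 14.9, 15.6 and 16.9 CPM with DMSO (log2FC -1.70, SE 0.12, adjusted p = 1.5e-07). In all 3 genes the treated libraries lay below the lowest control. ZNF469, known from brittle cornea syndrome, had 1.55, 2.19 and 2.14 CPM with GSK715, against 5.14, 6.32 and 5.91 CPM with DMSO (log2FC -1.56, SE 0.20, adjusted p = 2.1e-05), and had 6.41, 6.39 and 5.04 CPM with GSK025. ZNF638, which in human cells brings the HUSH silencing complex to retroviral DNA that has not integrated, had 11.8, 13.2 and 15.8 CPM with GSK715, against 35.6, 37.4 and 42.7 CPM with DMSO (log2FC -1.51, SE 0.11, adjusted p = 1.4e-07). ZNF658, a KRAB-type gene known to repress genes in response to zinc, had 2.78 ± 0.38 CPM with GSK715 and 7.55 ± 0.726 CPM with DMSO (log2FC -1.44), but 41.1% of its transcript words are shared with the pseudogene ZNF658B, so its level is uncertain.

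The increase of ZNF697 (ENSG00000143067, chromosome 1, 119619422 to 119647773) with GSK715 was the largest among the members called. It had 50.5, 60.1 and 57 CPM with GSK715, against 16.4, 17.4 and 18.4 CPM with DMSO (log2FC 1.68, SE 0.085, adjusted p = 8.3e-09), while the GSK025 libraries stood at 17.6, 15 and 16.2 CPM. ZNF674, a KRAB-type gene of the X chromosome (ENSG00000251192, chromosome X, 46497727 to 46545457), had 10.9, 10.8 and 9.98 CPM with GSK715, against 6.28, 5.01 and 5.95 CPM with DMSO (log2FC 0.88, SE 0.17, adjusted p = 0.00072). With GSK025 it had 3.46, 3.49 and 4.99 CPM and fell (log2FC -0.53, adjusted p = 0.022), a call that ended when DMSO replicate 1 or 3 or GSK025 replicate 1 or 2 was left out (adjusted p = 0.061 to 0.084). ZNF503, a corepressor of the NET family known from developing striatum and mammary epithelium, had 77.4, 69.6 and 74.9 CPM with GSK715, against 40.6, 41.4 and 41.5 CPM with DMSO (log2FC 0.85, SE 0.057, adjusted p = 8.1e-08), although an antisense gene overlaps 15.8% of its exonic bases. The remaining named increases were also uncertain for shared exons: ZNF512 (32.1 ± 1.52 CPM with GSK715 and 18.8 ± 0.96 CPM with DMSO), ZNF428 (17.9 ± 2.32 and 11.2 ± 0.806 CPM) and ZNF580, a neighbour of ZNF581 (14.4 ± 1.51 and 9.63 ± 0.79 CPM). Their log2FC were 0.78, 0.68 and 0.58.

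**Figure D2:**
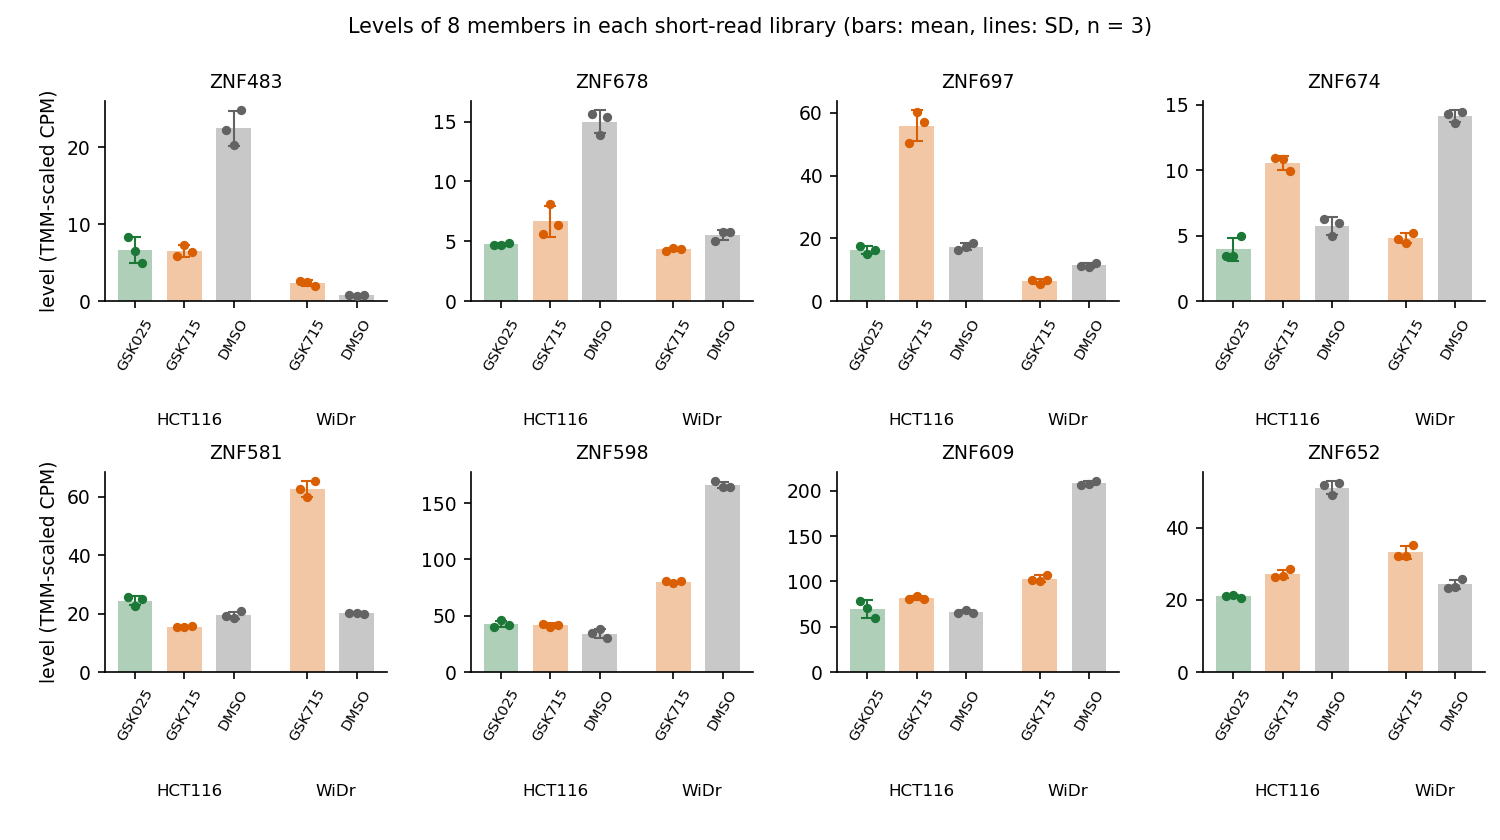
Levels of 8 named members in each short-read library (points, TMM-scaled CPM) with group means (bars) and SD (lines, n = 3), for the 3 HCT116 groups on the left of each panel and the 2 WiDr groups on the right. ZNF697 stood at 50.5 to 60.1 CPM with GSK715 in HCT116, above its other groups, and ZNF581 at 60.1 to 65.4 CPM with GSK715 in WiDr.

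The inhibitors were compared directly in HCT116, at different doses (5 µM GSK715 and 10 µM GSK025), so the difference between compounds and that between doses cannot be told apart. Of 154 members 34 were higher and 28 lower with GSK715 than with GSK025 (22.1% and 18.2%), against 21.8% and 22.5% among all genes tested, and with library totals 21 and 38. KRAB-type members gave 20 higher and 7 lower of 77 (median log2FC 0.09), and the others 14 and 21 of 77 (median -0.08). ZNF697 (log2FC 1.78, SE 0.086, adjusted p = 5.2e-09) and ZNF674 (log2FC 1.41, SE 0.17, adjusted p = 1.9e-05) were higher with GSK715. So was ZNF417, the copy of ZNF587 shown above, with 7.79, 11.4 and 10.9 CPM with GSK715, against 3.7, 3.78 and 3.71 CPM with GSK025 (log2FC 1.43, SE 0.19, adjusted p = 3.6e-05), an uncertain level. ZNF425 (log2FC -1.72, SE 0.27, adjusted p = 0.00019), ZNF469 (log2FC -1.60, SE 0.20, adjusted p = 2.1e-05) and ZNF423 (log2FC -1.10, SE 0.32, adjusted p = 0.013) were lower with GSK715. The call of ZNF423 ended without GSK715 replicate 2 (adjusted p = 0.05). ZNF483 had a log2FC of -0.022 between the inhibitors (SE 0.17, adjusted p = 0.93), and ZNF581 and ZNF496, an NSD1 partner known from the mouse, fell with GSK715 (log2FC -0.32 and -0.24) and rose with GSK025 (log2FC 0.33 and 0.34), with direct differences of -0.65 and -0.58.

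In WiDr short reads, 35.4% of the KRAB-type members and 46.8% of the others fell with GSK715, against 32.2% of all genes tested. The KRAB-type share was thus near that of all genes. Of 159 members tested 37 rose and 65 fell (23.3% and 40.9%), against 33.6% higher and 32.2% lower among 19340 genes tested. The medians were -0.17 for 82 KRAB-type members (17 higher, 29 lower, and 22 and 24 with library totals), -0.24 for 77 others (20 higher, 36 lower) and 0.05 for all genes, which moved by 0.12 with library totals. ZNF-number genes outside the range gave 72 higher and 78 lower of 230, with a median of -0.04. At least 2-fold changes were called for 11 members upward and 17 downward, against 17.5% and 10.5% of all genes.

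ZNF671 (ENSG00000083814, chromosome 19, 57719751 to 57727624), a KRAB-type gene whose promoter is printed above, had the largest named increase, with 2.92, 2.09 and 2.22 CPM with GSK715, against 0.637, 0.389 and 0.127 CPM with DMSO (log2FC 2.67, SE 0.47, adjusted p = 0.0006). It was at 0 in all 9 HCT116 libraries, which allows a level of up to 0.0465 CPM in a library. ZNF488 had 6.97, 4.33 and 5.89 CPM with GSK715, against 1.09, 1.2 and 1.33 CPM with DMSO (log2FC 2.24, SE 0.22, adjusted p = 8.2e-06). ZNF581 had 62.7, 60.1 and 65.4 CPM with GSK715, against 20.3, 20.3 and 19.97 CPM with DMSO (log2FC 1.64, SE 0.05, adjusted p = 1.8e-09), and is uncertain for the exons it shares with ZNF580. In these genes each treated library stood above each control. ZNF483, which fell in HCT116, rose in WiDr, with 2.65, 2.46 and 1.96 CPM with GSK715, against 0.787, 0.681 and 0.852 CPM with DMSO (log2FC 1.61, SE 0.24, adjusted p = 0.00017). ZNF487 (10.3 ± 0.805 CPM with GSK715 and 3.5 ± 0.484 CPM with DMSO) and the KRAB-type ZNF577 (6.32 ± 0.782 and 2.24 ± 0.273 CPM) completed the named increases. By ONT the log2FC of ZNF577 was 0.20 and differed from the short-read response in edgeR's interaction test (difference -1.24, adjusted p = 0.049). ZNF671, ZNF483 and ZNF487 had log2FC of 0.39, 0.43 and 0.71 by ONT. Their differences between the read types did not pass (adjusted p = 0.073, 0.17 and 0.19). ZNF488 and ZNF581 differed, as given below.

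Among the decreases, ZNF699, a KRAB-type gene mutated in the developmental syndrome DEGCAGS, had 1.32, 1.03 and 1.74 CPM with GSK715, against 5.29, 4.52 and 5.14 CPM with DMSO (log2FC -1.87, SE 0.22, adjusted p = 3.4e-05). ZNF674 had 4.78, 4.45 and 5.22 CPM with GSK715, against 14.3, 13.6 and 14.5 CPM with DMSO (log2FC -1.55, SE 0.11, adjusted p = 5.7e-07), with no overlap of the groups. ZNF441 had 1.32, 0.884 and 1.39 CPM with GSK715, against 3.05, 3.57 and 4.03 CPM with DMSO (log2FC -1.57, SE 0.23, adjusted p = 0.00019), and ZNF566 and ZNF546, also KRAB-type and on chromosome 19, had log2FC of -1.47 and -1.47 at levels below 3 CPM. ZNF593 had 8.61, 8.82 and 6.05 CPM with GSK715, against 17.8, 23.9 and 17.7 CPM with DMSO (log2FC -1.34, SE 0.16, adjusted p = 4.9e-05). ZNF664, the most strongly expressed member per kb, had 186, 195 and 184 CPM with GSK715, against 337, 337 and 340.4 CPM with DMSO (log2FC -0.84, SE 0.03, adjusted p = 5.2e-09). The treated libraries of ZNF664 stood below the controls in HCT116 as well (log2FC -0.54 with GSK025 and -0.18 with GSK715). By ONT the WiDr log2FC was 0.61 for ZNF664, -0.1 for ZNF699 and 0.19 for ZNF441, and none of these passed. Each differed from the short-read response in edgeR's interaction test (adjusted p = 0.00014, 0.0088 and 0.013). ZNF674 and ZNF566 differed as well, as given below, and ZNF593 and ZNF546 did not pass (adjusted p = 0.056 and 0.21).

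**Figure D3:**
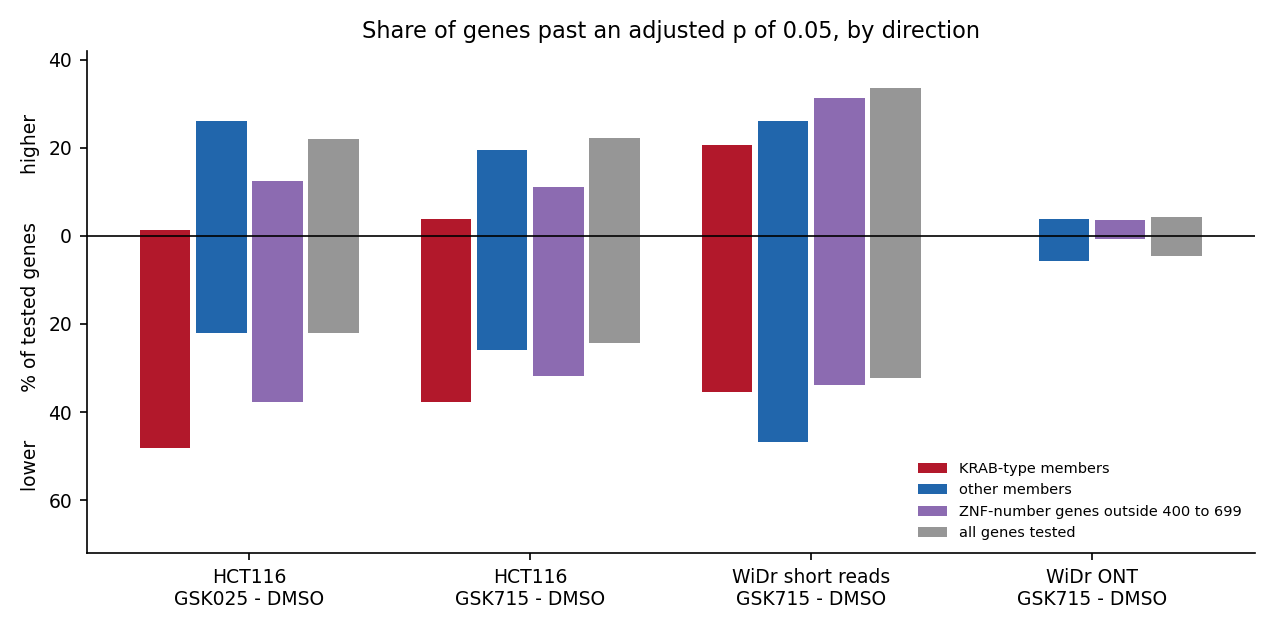
Percent of tested genes past an adjusted p of 0.05 in edgeR, higher with the inhibitor above the zero line and lower below it, for KRAB-type members, other members, other ZNF-number genes and all genes tested, in 4 comparisons (x axis). With GSK025 in HCT116, 48.1% of KRAB-type members were lower and 1.3% higher.

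Whether the GSK715 response differed between the lines was tested as an interaction over the libraries of both tables, scaled together, so a difference can depart from that of the separate log2FC. The response of 42 of 164 members was higher in WiDr than in HCT116 and that of 34 was lower (25.6% and 20.7%), against 23.2% and 23.5% among 21791 genes tested. Library totals gave 63 higher and 24 lower and moved the median of all genes by 0.34. Of the 150 members tested in both lines, 51 passed in both. Among these 24 fell in both, 4 rose in both (ZNF428, ZNF444, ZNF512 and ZNF580, of which ZNF444 lies outside the naming rule), 11 fell in WiDr and rose in HCT116, and 12 rose in WiDr and fell in HCT116. The opposite calls made up 45.1% of the 51, against 36.4% of 6557 genes called in both lines.

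For ZNF483 the difference was the largest of those named (difference in log2FC 3.32, SE 0.23, adjusted p = 5.8e-08). ZNF658 (difference in log2FC 2.74, SE 0.30, adjusted p = 4.8e-06) also had the higher response in WiDr, with 1.95, 2.39 and 1.96 CPM with GSK715, against 0.704, 0.972 and 0.75 CPM with DMSO. ZNF493 (difference in log2FC 2.45, SE 0.85, adjusted p = 0.03) was weak in HCT116, with 0.241, 0 and 0.322 CPM with GSK715, against 0.84, 1.3 and 0.452 CPM with DMSO, and in WiDr had 5.9, 5.41 and 5.24 CPM with GSK715, against 4.42, 4.02 and 4.77 CPM with DMSO. Its difference did not pass when any of 5 libraries was left out (adjusted p = 0.051 to 0.08), among them HCT116 DMSO replicate 2 (difference 2.07), or with a replicate block (adjusted p = 0.094). The response was lower in WiDr for ZNF697 (difference in log2FC -2.62, SE 0.14, adjusted p = 4.6e-09), whose WiDr libraries had 6.78, 5.48 and 6.61 CPM with GSK715, against 11.3, 10.8 and 12.3 CPM with DMSO. It was lower for ZNF674 as well (difference in log2FC -2.51, SE 0.17, adjusted p = 5.9e-08). ZNF506 (difference in log2FC -2.05, SE 0.47, adjusted p = 0.0027) had below 1 CPM in each HCT116 library. A further pair of members with opposite calls were ZNF514 and ZNF519, both KRAB-type, with log2FC of 1.16 and 0.99 in WiDr and -1.004 and -0.73 in HCT116. By ONT their WiDr log2FC were 0.38 and -0.16, and neither passed. Both differed from the short-read response in edgeR's interaction test (difference -0.73 and -1.10, adjusted p = 0.048 and 0.0064).

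**Figure D4:**
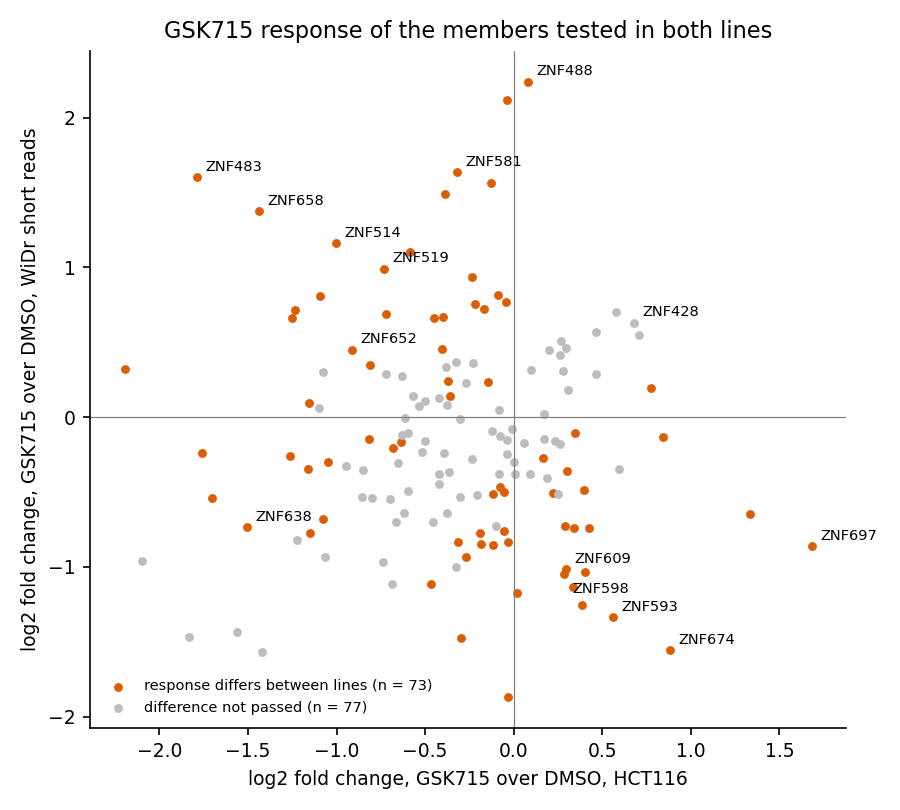
Log2 fold change with GSK715 over DMSO in WiDr short reads (y axis) and in HCT116 (x axis) for the 150 members tested in both lines, which have separate DMSO libraries. Orange points (n = 73) passed the test of the difference between the lines in edgeR, grey points (n = 77) did not, and ZNF483 and ZNF697 lie in opposite corners.

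The ONT libraries measured the same treatment of WiDr with far fewer counts. Of 104 members tested 2 rose and 3 fell (1.92% and 2.88%), against 4.29% and 4.51% of 15877 genes. None of the 52 KRAB-type members passed in edgeR, where 5 were higher and 2 lower at an unadjusted p under 0.05, and DESeq2 called none of the 104 members. The 2 increases were ZNF608 (13.5 and 12.3 CPM with GSK715, against 5.54 and 4.8 CPM with DMSO, log2FC 1.30, SE 0.43, adjusted p = 0.045) and ZNF496 (33.7 and 23.8 against 16 and 15.1 CPM, log2FC 0.88, SE 0.27, adjusted p = 0.028). ZNF524, a telomere-binding protein that shares exons with FIZ1 (94.3 and 85.1 against 123 and 123 CPM, log2FC -0.45), ZNF598 (32.3 and 40.8 against 50.4 and 65.1 CPM, log2FC -0.65) and ZNF579 (61.3 and 74.9 against 90.4 and 93.9 CPM, log2FC -0.44) fell. Short reads had called ZNF608 higher and ZNF598 and ZNF579 lower as well, but ZNF496 lower and ZNF524 higher. ZNF605 (0.92), ZNF586 (0.48) and ZNF670 (-1.33) had the next smallest p and did not pass (adjusted p = 0.053, 0.072 and 0.074). ZNF586, ZNF670 and ZNF524 are uncertain for shared exons or a readthrough gene. Each of the 5 calls ended when 2 or more of the 4 libraries were left out in turn (adjusted p = 0.13 to 0.37), without the count filter and with DESeq2.

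Between the read types, the GSK715 response of 21 of 175 members was higher by ONT than by short reads and that of 10 was lower, against 11.2% and 8.69% of 24055 genes. With library totals, which moved the median of all genes by -0.20, 17 were higher and 16 lower. ZNF581 (difference in log2FC -1.36, SE 0.08, adjusted p = 3.6e-07) had 205 and 197 CPM with GSK715, against 173 and 171 CPM with DMSO by ONT. ZNF674 had 11.4 and 5.44 CPM with GSK715, against 5.54 and 8.23 CPM with DMSO, and the groups overlapped (difference in log2FC 1.91, SE 0.40, adjusted p = 0.0045, and 1.26 with adjusted p = 0.20 without ONT GSK715 replicate 1). ZNF566, ZNF613, ZNF488 and ZNF461 also differed, each with fewer than 10 CPM by ONT, and all 4 lost their call without 1 or more single libraries. Without ONT DMSO replicate 1 the adjusted p was 0.067 for ZNF566 and ZNF613, without ONT DMSO replicate 2 it was 0.16 for ZNF488, and ZNF461 passed in 2 of the 10 fits that left out 1 library (without ONT DMSO replicate 1 or ONT GSK715 replicate 2). Mean ONT read lengths were 1095 and 1160 bases with GSK715 and 1175 and 1206 bases with DMSO, and the part of read length in these differences was not tested.

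A list of 19 members with described roles was followed, of which ZNF445 is KRAB-type and the others are not. With GSK025 in HCT116, 7 of the 19 rose and 6 fell, against 22.0% higher and 22.1% lower among all genes tested, with a median log2FC of 0.03 (-0.02 over all genes). With GSK715 in HCT116 the counts were again 7 and 6, against 22.1% and 24.2% of all genes, with a median of -0.11 (-0.05 over all genes). In WiDr 4 of 17 tested rose and 12 fell, against 33.6% and 32.2% of all genes, with a median of -0.68 (0.05 over all genes). The 3 factors of the list that work at the ribosome, of which ZNF593 and ZNF598 are uncertain for shared exons, fell in WiDr short reads and rose in HCT116 with GSK715. In WiDr, ZNF598 had 80.9, 79.1 and 80.7 CPM with GSK715, against 169.6, 164 and 165 CPM with DMSO (log2FC -1.05). In HCT116 it had 43, 39.7 and 42.1 CPM with GSK715, against 34.8, 38 and 29.9 CPM with DMSO (log2FC 0.28), the groups overlapped in neither line, and its interaction passed (difference -1.40, adjusted p = 5.2e-08). The HCT116 increase of ZNF598, an uncertain gene, ended with library totals (log2FC 0.12, adjusted p = 0.26). In WiDr, ZNF622 had 32.4, 33 and 31.9 CPM with GSK715, against 48.2, 44.5 and 43.6 CPM with DMSO (log2FC -0.49). In HCT116 it had 43.7, 45.1 and 41.3 CPM with GSK715, against 31.3, 32.2 and 35.3 CPM with DMSO (log2FC 0.40, difference -0.95, adjusted p = 4.8e-07). ZNF593 went the same way, with log2FC of -1.34 in WiDr and 0.56 in HCT116. By ONT ZNF622 had a log2FC of -0.11 and did not pass, and ZNF593 was not tested. Differences between the read types did not pass for ZNF598, ZNF622 and ZNF593 (difference 0.45, 0.42 and 2.45, adjusted p = 0.062, 0.18 and 0.056).

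Among chromatin and transcription regulators of the list, ZNF592, ZNF532 and ZNF687, which form a complex with the histone reader ZMYND8, all fell in WiDr (log2FC -0.74, -0.85 and -0.51). In HCT116 with GSK715 ZNF592 rose (log2FC 0.43) and ZNF532 and ZNF687 did not pass (log2FC -0.11 and -0.12). ZNF687 is uncertain for the exons it shares with PI4KB. ZNF644, a partner of the histone methyltransferase G9a, fell in both lines, with 14.2, 18.9 and 16 CPM with GSK715, against 35, 34.2 and 34.5 CPM with DMSO in HCT116 (log2FC -1.08, SE 0.10, adjusted p = 1.9e-06) and a log2FC of -0.68 in WiDr. The SUMO ligase ZNF451 fell in each short-read comparison, with 24.3, 21.3 and 25.1 CPM with GSK025 and 24.3, 22.5 and 26.9 CPM with GSK715, against 59.3, 52.9 and 51.4 CPM with DMSO in HCT116 (log2FC -1.21 and -1.15, and -0.78 in WiDr). ZNF638 fell in WiDr too, with 84.7, 85.3 and 85.1 CPM with GSK715, against 138, 142 and 145 CPM with DMSO (log2FC -0.74). In the ONT libraries it had 61.3 and 68.7 CPM with GSK715, against 38.8 and 64.5 CPM with DMSO, and that response differed from the short-read one (difference 1.13, adjusted p = 0.001). ZNF609 had 101, 101 and 107 CPM with GSK715, against 207, 207 and 211 CPM with DMSO in WiDr (log2FC -1.02, SE 0.034, adjusted p = 3.1e-09), and 80.7, 83.8 and 80.5 against 65.5, 68.9 and 65.5 CPM in HCT116 (log2FC 0.29, and 0.13 with adjusted p = 0.21 by library totals). By ONT the WiDr log2FC was -0.02 for ZNF609 and 0.28 for ZNF644. Their responses also differed between the read types (difference 1.05 and 1.02, adjusted p = 0.00033 and 0.00027). For ZNF451, ZNF592, ZNF532 and ZNF687 that difference did not pass (adjusted p = 0.11 to 0.88).

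ZNF652, a repressor that works with CBFA2T3, rose in WiDr and fell in HCT116. In WiDr it had 32.1, 32.3 and 35.2 CPM with GSK715, against 23.3, 23.7 and 25.9 CPM with DMSO (log2FC 0.45). In HCT116 it had 21.1, 21.4 and 20.4 CPM with GSK025 and 26.3, 26.6 and 28.5 CPM with GSK715, against 52, 49.1 and 52.4 CPM with DMSO (log2FC -1.29 and -0.91). The groups overlapped in neither line, and the difference between the lines passed (1.29, adjusted p = 5e-08). ZNF445, a KRAB-type gene that keeps imprinted DNA methylation, rose in WiDr (log2FC 0.24), a call that ended when any library but DMSO replicate 3 was left out (adjusted p = 0.067 to 0.16). It fell in HCT116 (log2FC -0.65 with GSK025 and -0.37 with GSK715). ZNF410, the activator of the chromatin remodeler gene CHD4, had log2FC of -0.74 in WiDr and 0.34 in HCT116 with GSK715, and is uncertain for 46.0% shared exonic bases. ZNF462 and ZNF608 rose in WiDr (log2FC 0.72 and 0.67) and ZNF516 fell (log2FC -0.47). ZNF521, a progenitor factor, had below 1 CPM in each HCT116 library and passed in no comparison, and ZNF423 was at 0 in all 6 short-read libraries of WiDr.

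**Figure D5:**
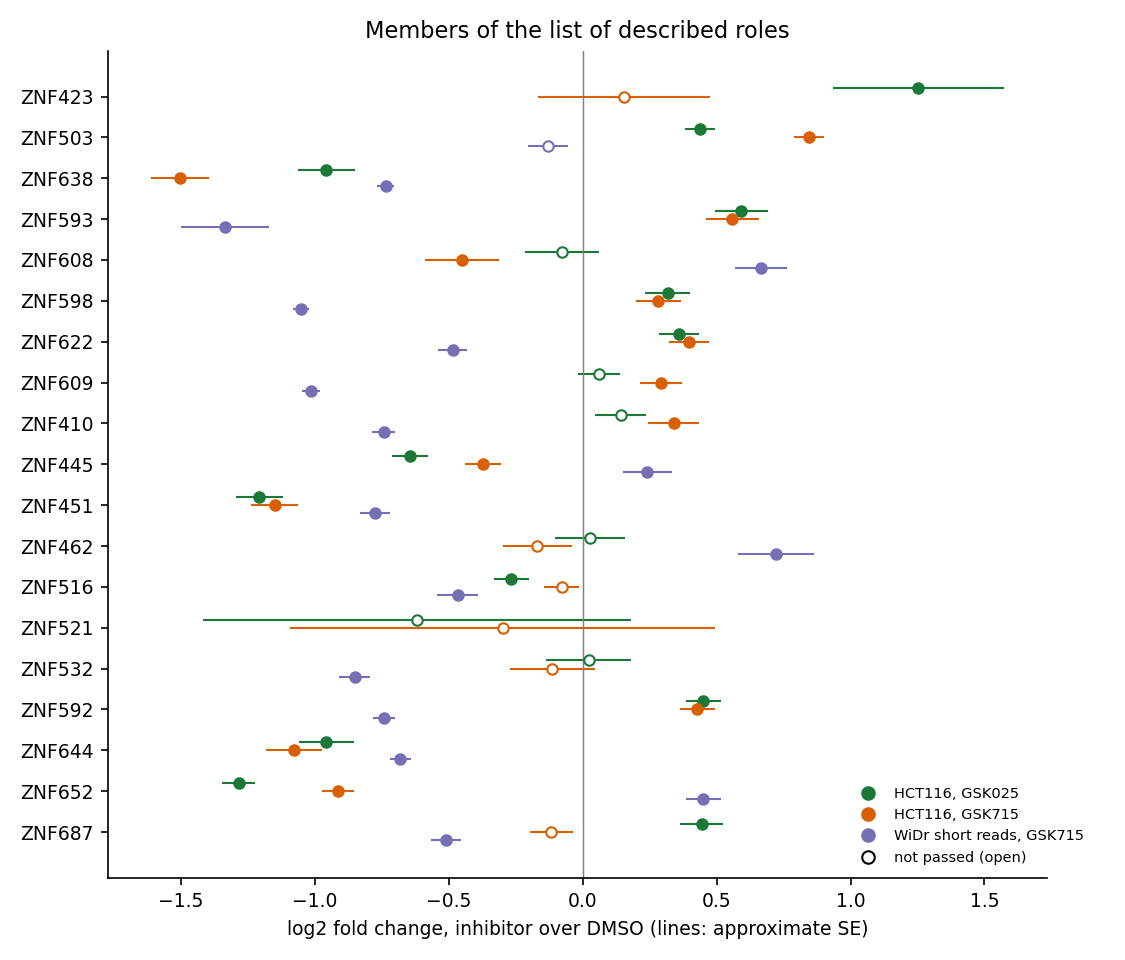
Log2 fold change, inhibitor over DMSO, with its approximate SE (lines) for the 19 members of the list of described roles, of which ZNF445 is KRAB-type, in HCT116 with GSK025 (green), HCT116 with GSK715 (orange) and WiDr short reads with GSK715 (purple). Filled points passed an adjusted p of 0.05 in edgeR, and ZNF451, ZNF638 and ZNF644 lie left of zero in each of the 3 comparisons.

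Decreases of KRAB-type members were found on chromosome 19 and elsewhere. With GSK025 in HCT116, 23 of 53 on chromosome 19 fell and 1 rose (median log2FC -0.54), and 14 of 24 on other chromosomes fell and none rose (median -0.59), against 22.1% lower and 22.0% higher among all genes tested. With GSK715 in HCT116 the counts were 16 lower and 2 higher of 53, and 13 lower and 1 higher of 24, against 24.2% and 22.1% of all genes. The largest chromosome 19 cluster (members at most 1 Mb apart) spans 55476332 to 58481230 (GRCh38) and holds 32 members, of which 21 are KRAB-type. Of its 23 tested members 5 rose and 4 fell with GSK025 in HCT116 (median log2FC 0.11), and of 24 tested in WiDr 11 rose and 9 fell with GSK715 (median 0.19), against 33.6% higher and 32.2% lower among all genes. The cluster at 51804816 to 53392217 holds 19 members, all KRAB-type, and gave 6 decreases and no increase of 13 tested with GSK025 (median -0.66). That at 36182060 to 37817300 holds 14 members and gave 6 decreases and no increase of 8 (median -0.94). In WiDr these 2 clusters gave 5 lower and 2 higher of 12, and 2 lower and 1 higher of 9. Differences between clusters were not tested.

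Longer members and those with more fingers had lower log2FC in HCT116. Across the 154 members tested, Spearman's rho of the log2FC with exonic length was -0.315 with GSK025 and -0.229 with GSK715, against -0.231 and -0.205 across 14703 protein-coding genes. With the number of fingers rho was -0.306 and -0.225. In WiDr rho with length was -0.0878, and that with the level in DMSO was -0.303, against -0.429 across 13808 protein-coding genes. In HCT116 rho with the level in DMSO was 0.14 with GSK025 and 0.15 with GSK715, against 0.074 and 0.0852 across protein-coding genes. The level in DMSO is also the denominator of the log2FC, so these quantities are not independent. These values describe genes that share the same libraries and carry no test. By finger number, members with 0 to 7 fingers gave 11 higher and 12 lower of 46 with GSK025, those with 8 to 12 gave 6 and 24 of 63, and those with 13 or more gave 4 and 18 of 45, against 22.0% and 22.1% of all genes tested.

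The partners through which KRAB zinc finger proteins act were taken as a list of 25 genes, all of them tested in each table. With GSK025 in HCT116 11 rose and 10 fell, against 22.0% higher and 22.1% lower among all genes tested. With GSK715 in HCT116 8 rose and 12 fell (4 and 14 with library totals), against 22.1% and 24.2%, and with GSK715 in WiDr 12 rose and 11 fell, against 33.6% and 32.2%. TRIM28, the scaffold, rose in each short-read comparison, with 736 ± 31.6 CPM with GSK025, 574 ± 20.3 CPM with GSK715 and 459 ± 13 CPM with DMSO in HCT116 (SD, n = 3, log2FC 0.68 and 0.32, and 0.22 in WiDr). SETDB1 did not pass in HCT116 (log2FC -0.11 with GSK025 and 0.029 with GSK715) and rose in WiDr (log2FC 0.31). TASOR, the core of the HUSH complex, fell in HCT116 (log2FC -0.73 with GSK025 and -2.24 with GSK715) and in WiDr (log2FC -0.54). The chromatin remodelers ATRX (log2FC -1.40, -2.82 and -0.19) and SMARCAD1 (log2FC -1.25, -1.64 and -1.05) fell in the same 3 comparisons. The remodeler CHD3 rose in all 3 (log2FC 0.25, 0.26 and 0.33), as did MORC2 (log2FC 0.49, 0.33 and 0.26). CHD4 rose with GSK025, fell with GSK715 in HCT116 and did not pass in WiDr (log2FC 0.33, -0.26 and 0.045). By ONT TASOR had a log2FC of 0.17, and its response differed from that by short reads (difference 0.77, adjusted p = 0.0035). EHMT2, the methyltransferase G9a, rose in WiDr short reads (log2FC 2.02) and had a log2FC of -0.13 by ONT, where ATF7IP, the partner of SETDB1, was the 1 gene of the list that passed (log2FC 0.98) and none fell (edgeR, 1 lower at an unadjusted p under 0.05, and DESeq2 called none). ATF7IP also rose in WiDr short reads (log2FC 0.72) and fell in HCT116 (log2FC -0.46 with GSK025 and -1.02 with GSK715).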

How the data were processed

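Poly(A)-enriched RNA of HCT116 and WiDr cells was sequenced as paired-end short reads, and WiDr RNA also as full-length ONT cDNA. The authors deposited whole-number counts per gene for the short reads, and estimated counts per gene for ONT, of which 15.1% of all values and 39.5% of the members' values are not whole; these were rounded. The submitters' processing notes name cutadapt, HISAT2, StringTie, DESeq2, minimap2, Salmon and GRCh38, without roles, and the annotation release is not given in the sources used here.

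Genes with at least 10 counts by edgeR's filterByExpr were fitted with edgeR 4.0.16 (R 4.3.3, limma 3.58.1; TMM scaling, quasi-likelihood F-test, Benjamini-Hochberg adjustment over all genes tested, threshold 0.05). The 9 HCT116 libraries shared 1 fit. Interactions joined the gene IDs shared by the 2 tables (60259 for the lines, 61975 for the read types). DESeq2 1.42.0, RLE factors, library totals, no filter, a replicate block and leaving out libraries or members with shared exons or sequence were the alternatives. The fit was tested on simulated counts. Nothing states that replicates came from separate cultures, and the p-values then reflect only the scatter among these libraries, which may be technical. The members and lists were chosen with earlier results of these data known. The role list held 19 members and the partner list 25 genes.

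Exons, coordinates and reading frames come from GENCODE 29, whose build is that named by the submitters. KRAB, SCAN and finger letters were searched in the longest reading frame of its coding transcripts, in place of the protein sequences planned, which were not used here. Promoters come from RefSeq (GRCh38.p14). The rule for naming members took the top 6 called in each direction per inhibitor and line with at least 1 CPM and no overlap of groups, 3 and 3 for the inhibitors against each other and the interactions, the 4 and 4 smallest p for ONT, the 6 highest per kb, the role list, and members called in opposite directions. No member was called the same way in all 4 inhibitor comparisons. Intervals at a count of 0 use 3 counts and cover counting error only.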

Additional observations from a re-analysis of the deposited data

Results flagged for a closer look

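The GSK715 response was compared between the lines by an interaction test in edgeR (log2FC in WiDr minus log2FC in HCT116). Of the members that differed, 6 are given here, the 3 largest differences in each direction under the naming rule. Others passed as well, among them ZNF598 and ZNF609. ZNF483 differed by 3.32, ZNF658 by 2.74 and ZNF493 by 2.45, and these responses were higher in WiDr. ZNF697 differed by -2.62, ZNF674 by -2.51 and ZNF506 by -2.05, and these were lower in WiDr. The difference of ZNF493 did not pass with a replicate block (adjusted p = 0.094) or without any 1 of 5 libraries. ZNF483 rose in WiDr and fell in HCT116, and ZNF697 and ZNF674 fell in WiDr and rose in HCT116.

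The GSK715 response of WiDr differed between ONT and short reads (log2FC by ONT minus log2FC by short reads) for another 6. ZNF566 differed by 3.74, ZNF613 by 1.93 and ZNF674 by 1.91, and ZNF461 by -3.60, ZNF488 by -1.83 and ZNF581 by -1.36. ZNF674 thus differed in both tests. Except for ZNF581, these 6 lost the call in at least 1 fit that left out a library, and ZNF461 kept it in 2 of 10 such fits. The role of read type, depth and library preparation in the second set was not tested.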

How the results depend on the processing

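Of the results for single named genes, 4590 kept their direction and their side of the threshold, 236 lost the call, 60 gained one and none that passed changed sign. With library totals in place of TMM, members with GSK715 in HCT116 gave 11 higher (median log2FC -0.46, KRAB-type -0.58, other members 9 higher and -0.29, partner genes 4 higher). GSK715 against GSK025 gave 21 higher (median -0.11), WiDr short reads a median of -0.059 (KRAB-type -0.047, others -0.11), ONT 1 higher, the line interaction a median of 0.44, the read-type interaction 16 lower (median 0.026), and other members with GSK025 a median of -0.0056. RLE factors and DESeq2 gave medians of -0.28 with GSK715 in HCT116, -0.0038 between inhibitors and 0.13 between lines, and a fit of only the 2 groups -0.28 with GSK715 in HCT116. Without the count filter the median between inhibitors was -0.025 and that of other members in WiDr -0.17. For ONT, DESeq2 and no filter called 0 members higher, 0 lower and 0 partner genes higher (edgeR with the filter had 11 members higher and 8 lower at an unadjusted p under 0.05).

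Without members that share exons, 13 rose with GSK025 (median -0.39, other members 12 and -0.035), 11 rose with GSK715 in HCT116 (other members 8, median -0.19), 13 other members rose in WiDr (median -0.17), 1 fell by ONT, the line interaction had a median of 0.19 and the read-type one 6 lower. These fits hold fewer members. Chosen after seeing the data, leaving out members with shared sequence gave other members a median of 0.021 with GSK025, and KRAB-type by letters of either end of the A box had 2 higher with GSK025.

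Leaving out each library in turn gave 19 to 22 higher and 42 to 51 lower with GSK025 (median -0.30 to -0.26), 16 to 19 and 37 to 48 with GSK715 in HCT116 (-0.31 to -0.24), and 26 to 31 and 20 to 27 between inhibitors (-0.035 to 0.022). It gave 31 to 35 and 60 to 63 in WiDr (-0.22 to -0.18), 0 to 2 and 0 to 2 by ONT (-0.013 to 0.067), 37 to 45 and 33 to 37 between lines (0.038 to 0.18), and 14 to 23 and 4 to 10 between read types (0.20 to 0.28). KRAB-type members had 0 to 1 higher and 27 to 35 lower with GSK025 (-0.59 to -0.53), 2 to 4 and 22 to 29 with GSK715 in HCT116 (-0.44 to -0.36) and 13 to 16 and 25 to 29 in WiDr (-0.21 to -0.13). Other members had 19 to 21 and 14 to 16 with GSK025 (0.0066 to 0.088), 14 to 16 and 15 to 22 with GSK715 in HCT116 (-0.19 to -0.091) and 18 to 20 and 33 to 36 in WiDr (-0.27 to -0.19). Where 1 ONT library was left in a group, it was assumed to vary like the other group.

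Deviations of same-numbered libraries from their group means had correlations of -0.152 to 0.106, so the numbers were not taken as a pairing. With a replicate block, other members had a median of 0.028 with GSK025 and -0.17 with GSK715 in HCT116, and 9 calls of single named genes were lost and 3 gained. The cause of these shifts was not tested. The depth of the ONT libraries limits them to 104 members, with a count of 0 allowing up to 1.8 to 2.07 CPM in a library.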
